A study of Homo sapiens with 6 samples.

Results

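Polycomb group genes were examined in the multiple myeloma line MOLP-8, a long-established human line, after lentiviral CRISPR targeting of LIN28B. The set holds 10 genes, taken by symbol from a list of subunits of Polycomb repressive complexes 2 and 1 (PRC2 and PRC1): EZH2, EZH1, EED, SUZ12, RBBP7, JARID2, PHF19, BMI1, RNF2 and RING1. All 10 were found among the 57886 genes listed in the files, and none had a failed estimate. The control group received a scrambled guide, and the group called LIN28B KO received one that targets LIN28B, whose protein binds let-7 precursors and blocks their maturation. Both guides were delivered in lentiCRISPRv2, and cells of both groups were kept under puromycin at 1 ug/mL. Each group had 3 libraries, 6 in all. The labels do not say whether these came from separate cultures or transductions, or whether the cells were clones, so that a p-value here covers the spread among libraries alone, which may be technical. The question here is whether the transcripts of the Polycomb machinery differed once LIN28B was targeted.

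PRC2 writes methylation on lysine 27 of histone H3, a mark of silenced genes. Its catalytic subunit is EZH2 or the paralog EZH1, held in an obligate core with EED and SUZ12 and with the histone-binding proteins RBBP4 or RBBP7, while JARID2 and the Polycomb-like protein PHF19 help bring it to chromatin. PRC1 ubiquitinates histone H2A through RING1 or RNF2 paired with a PCGF protein, of which BMI1 is the best known. EZH2 is abundant in dividing cells and EZH1 also in resting ones, and EZH2 and PHF19 are known for high levels in aggressive myeloma.

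Levels are given as FPKM, which corrects fragment numbers for the length of the transcript and the depth of the library, so that levels of different genes can be set side by side. LIN28B, the targeted gene, measured 23.3, 24.3 and 25.5 FPKM in control cells against 8.41, 8.17 and 5.84 FPKM after targeting, and fell in both comparisons in limma (log2 fold change -1.66, SE 0.17, adjusted p = 0.0207 with 6 libraries and -1.50, SE 0.09, adjusted p = 0.00749 with 5). Rough fragment numbers, derived from the deposited bounds as if these held counting error alone, ran from 4808210 to 8368310 per library. LIN28B KO library 3 stood apart: 30.4% of 401 olfactory receptor genes had a value above 0 there against 10.2% to 14.5% in the other 5 libraries, and over 15803 tested genes the log2 ratio to the mean of the controls had a median of -0.35 in it against -0.01 in both other LIN28B KO libraries. Fitted differences are therefore given with all 6 libraries and with 5, without that library, for each gene that both tests cover; the 5-library comparison covered 11308 protein-coding genes. The plasma cell markers SDC1, CD38, XBP1, IRF4, PRDM1, TNFRSF17 and SLAMF7 were all present, with a summed level of 2355 to 2408 FPKM in the controls and 1643 to 2416 FPKM in LIN28B KO. Of 6 T and NK cell markers 2 reached 1 FPKM in any library (summed level 1.39 to 1.64 FPKM in control and 1.99 to 2.91 FPKM in LIN28B KO), and of 5 myeloid markers 1 did (0.458 to 0.961 FPKM and 0.774 to 1.38 FPKM). Of 4 earlier B cell markers 2 reached that level (0.909 to 1.47 FPKM and 1.68 to 6.48 FPKM), with MS4A1 listed at 0 in every library, and of 5 stromal markers 3 did (3.03 to 5.89 FPKM and 3.62 to 14.0 FPKM). None of 4 red cell markers reached it (0.1001 to 0.953 FPKM and 0.0698 to 0.619 FPKM). Of 4 epithelial markers 3 did, mainly KRT8, a keratin also known in myeloma lines, with summed levels of 121 to 133 FPKM and 77.7 to 103 FPKM.

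Because LIN28B blocks the maturation of let-7, the 3′ UTRs of the members were searched for matches to the let-7 seed, bases 2 to 8 of the microRNA. All 9 mature let-7 and miR-98 sequences in RefSeq (GRCh38.p14) share 1 seed, shown in capitals in 3 of them that differ elsewhere.
hsa-let-7a-5p: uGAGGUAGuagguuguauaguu
hsa-let-7d-5p: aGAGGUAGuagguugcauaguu
hsa-miR-98-5p: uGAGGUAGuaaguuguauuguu

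In the longest annotated 3′ UTR of each member (GENCODE 29), 2 of 10 members held a match of 7 bases, and these were the paralogous methyltransferases. The letters searched were CTACCTC, opposite the seed, and TACCTCA, which covers the seed without its last base and adds an A; the overlap of both counts as 1 site. The EZH2 match starts at base 7 of a 3′ UTR of 262 bases, and the EZH1 match at base 548 of 2257 bases. Both are of the first kind, shown in capitals, and are followed by a run rich in C and T.
EZH2 site: catctgCTACCTCctcccccct
EZH1 site: caggtcaccttaCTACCTCctccctcgt

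Among 11313 tested genes with a 3′ UTR, 18.1% held at least 1 such match, so a share of 2 in 10 is near the background. A match of letters is not a measured site, and let-7 levels were not analysed here.

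Promoters of the members were searched for E2F words, since several PRC2 genes are known to be transcribed with the cell cycle. The window ran from 250 bases before to 50 after the RefSeq start, and the words were TTTCCCGC, TTTGGCGC, TTTGCCGC and TTTCGCGC on both strands. Of 10 member promoters 3 held a word, those of EZH2, SUZ12 and EZH1. The promoters of PHF19, RBBP7 and the remaining members held none. Among promoters of tested genes 5.05% of 13276 held a word, as did 9 of 16 promoters found for a list of proliferation genes. A match of letters is not a measured site, and binding of E2F was not tested. The word starts at base 2 after the start in EZH2 (chr7:148884242-148884541, minus strand), 189 bases before it in SUZ12 (chr17:31936757-31937056, plus strand) and 115 bases before it in EZH1 (chr17:42744991-42745290, minus strand), where it lies on the opposite strand. The 3 windows are shown in the direction of transcription, from GRCh38.p14, with the word in capitals.
EZH2: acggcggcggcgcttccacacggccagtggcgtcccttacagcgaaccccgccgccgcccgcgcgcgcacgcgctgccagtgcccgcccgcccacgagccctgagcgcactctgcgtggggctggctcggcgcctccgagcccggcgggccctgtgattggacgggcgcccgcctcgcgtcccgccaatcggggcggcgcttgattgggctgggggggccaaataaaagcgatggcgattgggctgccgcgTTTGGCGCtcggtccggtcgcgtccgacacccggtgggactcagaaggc
SUZ12: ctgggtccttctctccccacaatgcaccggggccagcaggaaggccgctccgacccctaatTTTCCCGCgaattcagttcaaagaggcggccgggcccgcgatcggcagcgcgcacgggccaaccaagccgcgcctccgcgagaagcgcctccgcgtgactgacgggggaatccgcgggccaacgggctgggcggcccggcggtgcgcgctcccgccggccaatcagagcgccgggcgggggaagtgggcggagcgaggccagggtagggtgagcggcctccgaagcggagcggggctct
EZH1: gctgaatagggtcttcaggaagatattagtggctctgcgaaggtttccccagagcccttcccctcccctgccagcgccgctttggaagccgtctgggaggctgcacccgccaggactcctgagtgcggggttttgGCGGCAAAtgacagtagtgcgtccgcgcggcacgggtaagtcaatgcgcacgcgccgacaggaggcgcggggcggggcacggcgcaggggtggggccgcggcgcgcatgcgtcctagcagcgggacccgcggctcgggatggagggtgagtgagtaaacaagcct

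The members spanned a wide range of levels in control cells. RBBP7 and BMI1 were the most abundant, with overlapping replicates, at 211 ± 9.65 FPKM and 196 ± 11.6 FPKM (SD, n = 3), above 97.1% and 96.8% of 15596 genes with a control mean of at least 1 FPKM. PHF19 followed at 74.1 ± 1.77 FPKM (SD, n = 3). EZH2 and EZH1 did not differ beyond their spread, at 36.4 ± 1.95 FPKM and 35.7 ± 4.41 FPKM (SD, n = 3). The same held for SUZ12 and RNF2, at 28.1 ± 1.81 FPKM and 26.7 ± 0.633 FPKM (SD, n = 3). EED stood at 22.1 ± 1.21 FPKM, RING1 at 18.6 ± 0.672 FPKM and JARID2, the lowest, at 5.81 ± 0.286 FPKM (SD, n = 3), above 33.5% of those genes. The deposited bounds describe uncertainty within a library, and how they were computed is not stated. Their half-widths ran from 4.75% to 13.0% of a member's value. They did not narrow with level alone: RBBP7 had 8.82% to 12.3% and RING1, at a lower level, 6.80% to 8.78%.

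**Figure D1:**
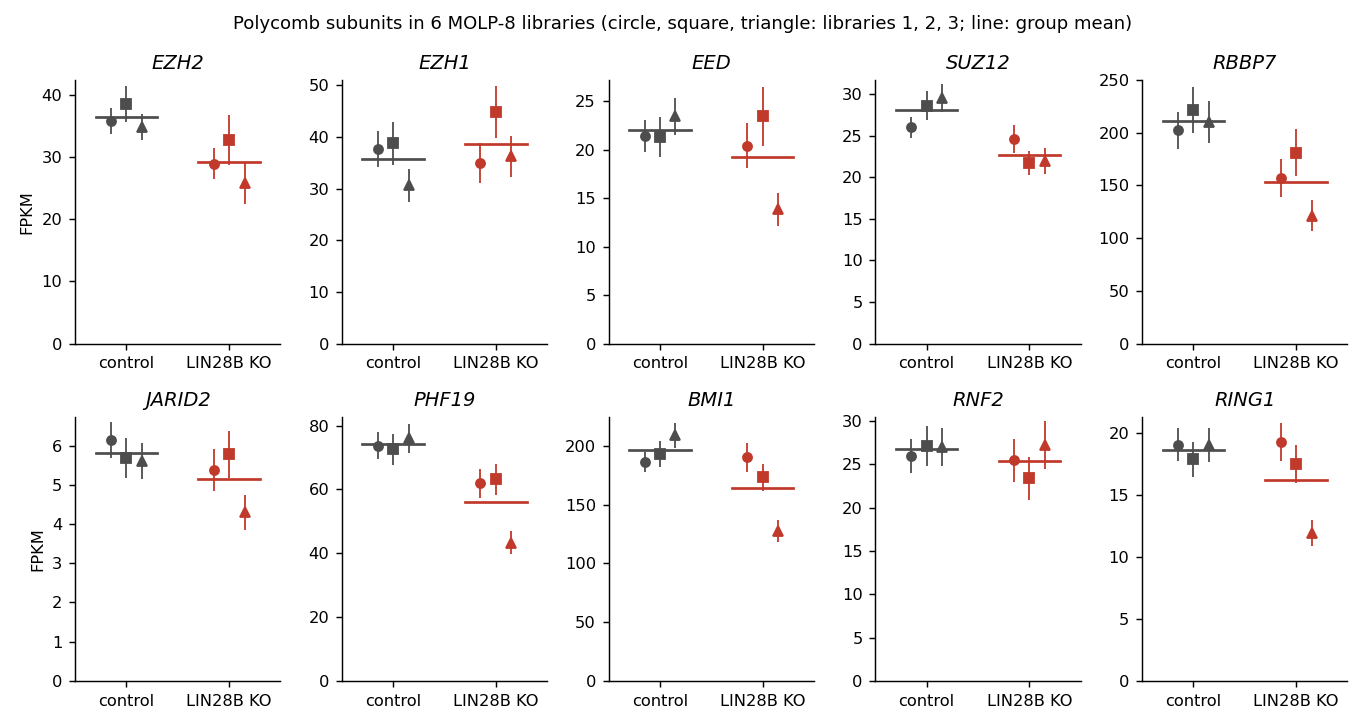
FPKM of the 10 Polycomb subunits in each of 3 control (grey) and 3 LIN28B KO (red) MOLP-8 libraries; error bars are the deposited bounds and lines are group means. EZH2, SUZ12, RBBP7 and PHF19 lie below all controls in every LIN28B KO library, and LIN28B KO library 3 (triangle) is the lowest red point for 7 of the 10 genes.

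No Polycomb subunit passed the test across all genes. In limma at an adjusted p of 0.05, 0 of 10 members were called with 6 libraries, where 0.0949% of all genes were, and 0 of 10 with 5 libraries, where 4.09% were. At an unadjusted p under 0.05, 4 of 10 members were lower in LIN28B KO in both comparisons, EZH2, SUZ12, RBBP7 and PHF19, against 8.73% of all genes with 6 libraries and 15.4% with 5. The same 4 lay below all controls in every LIN28B KO library, which 20.1% of all genes did, and RNF2 joined them with 5 libraries, where 26.4% of genes did. The median log2 fold change of the 10 members was -0.25 with 6 libraries and -0.12 with 5, against -0.13 and -0.04 for all genes tested; 9 of 10 members were below 0 in both, where 66.5% and 57.3% of all genes were.

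EZH2 (ENSG00000106462, chr7:148504475-148581413 in GRCh37, the build of all gene positions from here on), the catalytic subunit of dividing cells, was at 35.8, 38.6 and 34.8 FPKM in control cells against 28.98, 32.7 and 25.8 FPKM after LIN28B targeting. The groups did not overlap, but the gap was narrow: the bounds of LIN28B KO library 2, 28.7 to 36.7 FPKM, took in the values of control libraries 1 and 3. EZH2 stood at 80.1% of the control mean with 6 libraries and at 84.8% with 5. Its log2 fold change in limma was -0.32 (SE 0.14, adjusted p = 0.365) with 6 libraries and -0.24 (SE 0.09, adjusted p = 0.169) with 5.

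EZH1 (ENSG00000108799, chr17:40852293-40897071), the methyltransferase that is also found in resting cells, was the only member with a higher mean in LIN28B KO. It was at 37.6, 38.7 and 30.6 FPKM in control cells against 34.9, 44.9 and 36.2 FPKM after LIN28B targeting. The groups overlapped, and control library 3 and LIN28B KO library 2 were the extremes. The limma log2 fold change was 0.11 (SE 0.16, adjusted p = 0.728, 95% interval -0.26 to 0.49) with 6 libraries and 0.16 (SE 0.14, adjusted p = 0.561, 95% interval -0.18 to 0.49) with 5.

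SUZ12 (ENSG00000178691, chr17:30264037-30328064), which stabilises the PRC2 core, was at 26.04, 28.6 and 29.5 FPKM in control cells against 24.6, 21.7 and 22.0 FPKM after LIN28B targeting. The groups did not overlap, and LIN28B KO library 3 was not the lowest. Limma gave a log2 fold change for SUZ12 of -0.30 (SE 0.13, adjusted p = 0.364) with 6 libraries and -0.27 (SE 0.09, adjusted p = 0.150) with 5. SUZ12P, a pseudogene copy on the same chromosome with a value of 15.5 to 22.6 FPKM, shares sequence with SUZ12, so the split of fragments between them is uncertain. SUZ12P was highest in LIN28B KO library 3.

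EED (ENSG00000074266, chr11:85955586-85989855), which reads the methylated lysine and activates the enzyme, was at 21.4, 21.3 and 23.5 FPKM in control cells against 20.4, 23.5 and 13.9 FPKM after LIN28B targeting. The groups overlapped, and the low mean of LIN28B KO rested on library 3. On the log2 scale limma put EED at -0.22 (SE 0.20, adjusted p = 0.590, 95% interval -0.70 to 0.25) with 6 libraries and at -0.01 (SE 0.10, adjusted p = 0.967, 95% interval -0.24 to 0.22) with 5.

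RBBP7 (ENSG00000102054, chrX:16857406-16888537), a histone-binding protein of PRC2 and of several other chromatin complexes, had the lowest log2 fold change of the members. It was at 202, 221 and 210.3 FPKM in control cells against 157, 181 and 121 FPKM after LIN28B targeting, with no overlap. It stood at 72.5% of the control mean with 6 libraries and at 80.1% with 5. For RBBP7 limma estimated -0.48 on the log2 scale (SE 0.17, adjusted p = 0.332) and -0.32 (SE 0.08, adjusted p = 0.0677). RBBP4, its close paralog, was at 239, 256 and 236 FPKM in control cells against 228, 221 and 148 FPKM after LIN28B targeting, which also did not overlap; its log2 fold change was -0.32 (SE 0.19, adjusted p = 0.454) with 6 libraries and -0.12 (SE 0.05, adjusted p = 0.259) with 5.

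PHF19 (ENSG00000119403, chr9:123617977-123639606), a Polycomb-like protein that anchors PRC2 at its targets, had the smallest standard error of the 4 members below all controls when 5 libraries were used. It was at 73.7, 72.5 and 76.0 FPKM in control cells against 61.8, 63.1 and 43.3 FPKM after LIN28B targeting. The values did not overlap, and the bounds of control library 2 and LIN28B KO library 2 just met, at 67.8 and 68.0 FPKM. For PHF19 the estimate in limma was -0.42 on the log2 scale (SE 0.17, adjusted p = 0.359) with 6 libraries and -0.24 (SE 0.06, adjusted p = 0.0720) with 5. JARID2 (ENSG00000008083, chr6:15246527-15522252), which docks PRC2 on chromatin, was at 6.14, 5.68 and 5.61 FPKM in control cells against 5.37, 5.77 and 4.30 FPKM after LIN28B targeting, so that the groups overlapped. Its log2 fold change was -0.17 (SE 0.16, adjusted p = 0.605) with 6 libraries and -0.05 (SE 0.11, adjusted p = 0.817) with 5.

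All 3 PRC1 members overlapped between the groups when 6 libraries were used. BMI1 (ENSG00000168283, chr10:22610140-22620413), a PCGF protein that pairs with the RING proteins, was at 186, 193 and 209 FPKM in control cells against 190.2, 173 and 128 FPKM after LIN28B targeting. The groups overlapped. The limma log2 estimates for BMI1 were -0.28 (SE 0.18, adjusted p = 0.467) with 6 libraries and -0.11 (SE 0.07, adjusted p = 0.403) with 5. BMI1 shares its exons with the readthrough model COMMD3-BMI1, at 105 to 129.9 FPKM in the controls, so its value is uncertain; with both models summed, a choice made after seeing the data, the log2 fold change in limma was -0.32 (adjusted p = 0.498) with 6 libraries and -0.07 (adjusted p = 0.565) with 5.

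The ubiquitin ligases RNF2 (ENSG00000121481, chr1:185014496-185071740) and RING1 (ENSG00000204227, chr6:33176272-33180499) differed in their change from control mainly in 1 library. RNF2 was at 25.99, 27.1 and 27.04 FPKM in control cells against 25.4, 23.4 and 27.2 FPKM after LIN28B targeting. RING1 was at 19.1, 17.9 and 19.0 FPKM in control cells against 19.3, 17.5 and 11.9 FPKM after LIN28B targeting. Both genes overlapped between the groups, and LIN28B KO library 3 was the highest of the 6 for RNF2 and the lowest for RING1. On the log2 scale RNF2 had -0.08 (SE 0.12, adjusted p = 0.764) with 6 libraries and -0.13 (95% interval -0.31 to 0.06, adjusted p = 0.373) with 5. RING1 had -0.22 (SE 0.19, adjusted p = 0.570) and -0.02 (95% interval -0.23 to 0.19, adjusted p = 0.911).

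**Figure D2:**
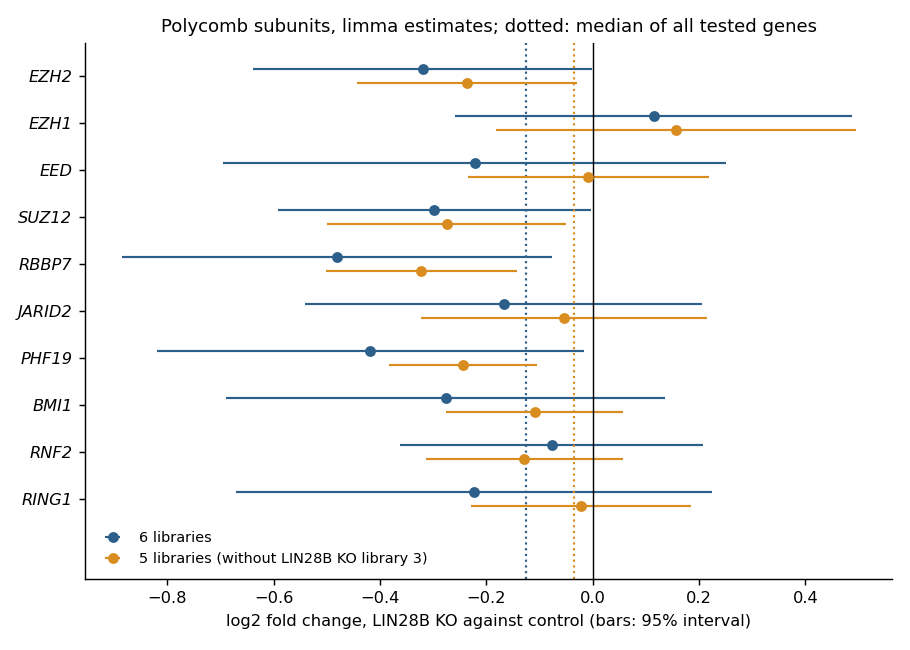
Estimated log2 difference, LIN28B KO minus control, of each Polycomb subunit with its 95% interval, from limma with 6 libraries (blue) and with 5 (orange); dotted lines mark the medians of all tested genes, -0.13 and -0.04. RBBP7, PHF19, SUZ12 and EZH2 have intervals below 0 in both comparisons, before adjustment over all genes.

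After cyclic loess scaling, which removes a trend with level in each library, PHF19 and RBBP7 remained below all controls in every LIN28B KO library. These were 2 of 10 members, against 13.3% of all genes. In limma after this scaling, PHF19 and RBBP7 alone were lower at an unadjusted p under 0.05, with 6 and with 5 libraries. Of all genes tested, 1396 of 15803 and 1188 of 11308 were. The median log2 fold change of the members was then -0.08 and -0.06, and 8 and 7 of 10 were below 0. Of all genes 49.2% and 49.8% were below 0. Log2 ratios to the control mean were -0.19, -0.17 and -0.24 for PHF19 in LIN28B KO libraries 1 to 3, and -0.34, -0.14 and -0.21 for RBBP7. For EZH2 they were -0.27, -0.10 and -0.02, so that library 3 lay within the controls, which ran from -0.06 to 0.09. For SUZ12 they were -0.14, -0.32 and 0.10, with library 3 above all controls. EZH1 stood at 0.03, 0.39 and 0.51, and RNF2 at -0.02, -0.14 and 0.48.

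Ratios of 2 subunits within a library do not depend on how that library is scaled as a whole, and 6 of them were compared. The ratio of EZH2 to EZH1 was 0.951, 0.996 and 1.14 in control cells against 0.830, 0.729 and 0.712 after LIN28B targeting. The groups did not overlap, and the geometric mean was 1.36-fold lower in LIN28B KO, 0.755 against 1.03. An exact two-sided permutation test gave p = 0.1, the smallest that 3 against 3 libraries allow, and 0.3 after adjustment over the 6 ratios. As a share of both methyltransferases, EZH2 made up 50.6% ± 2.33 in control and 43.0% ± 2.02 in LIN28B KO (SD, n = 3). RBBP7 to RBBP4 was 0.844, 0.864 and 0.892 in control cells against 0.689, 0.819 and 0.817 in the LIN28B KO libraries, also without overlap (exact permutation p = 0.1, adjusted p = 0.3).

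The other 4 ratios overlapped between the groups. EZH2 to SUZ12 had geometric means of 1.30 in control and 1.28 in LIN28B KO (exact permutation p = 0.9, adjusted p = 1), and EZH2 to EED of 1.65 and 1.54 (exact permutation p = 0.6, adjusted p = 0.9). PHF19 to MTF2, another Polycomb-like protein, had geometric means of 3.06 and 2.75 (exact permutation p = 0.5, adjusted p = 0.9). RNF2 to RING1 was 1.36 to 1.52 in the controls and 1.32, 1.34 and 2.28 after LIN28B targeting (exact permutation p = 1, adjusted p = 1); without library 3 the difference changed sign.

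**Figure D3:**
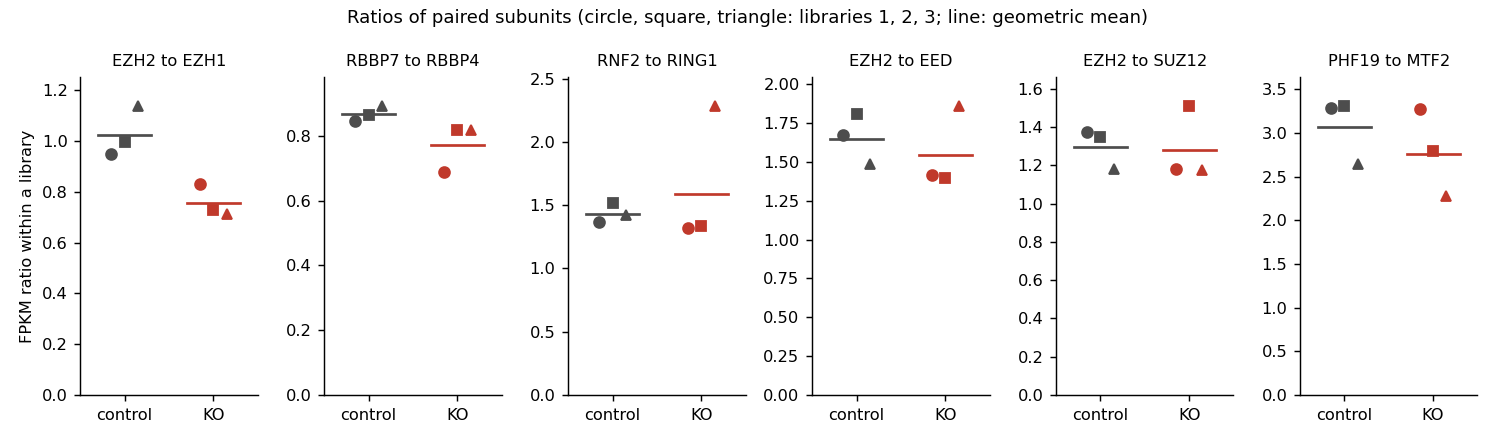
FPKM ratio of paired Polycomb subunits within each library, for 3 control (grey) and 3 LIN28B KO (red) libraries, with geometric means as lines. The EZH2 to EZH1 ratio is 0.951 to 1.14 in control and 0.712 to 0.830 in LIN28B KO, and RNF2 to RING1 reaches 2.28 in LIN28B KO library 3 only.

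Partner subunits of the same complexes were described by lists chosen with earlier results of these data known. Of 8 PRC2 partners in the files 6 were tested with 6 libraries and 5 with 5, and none passed. LCOR, which gives rise to a PRC2 accessory protein, was at 3.35, 4.83 and 4.17 FPKM in control cells against 7.55, 6.17 and 5.999 FPKM after LIN28B targeting, without overlap (log2 fold change 0.62, SE 0.18, adjusted p = 0.295 with 6 libraries and 0.68, SE 0.17, adjusted p = 0.0820 with 5). AEBP2, a cofactor that strengthens PRC2 binding to nucleosomes, had 0.26 (SE 0.14, adjusted p = 0.415) with 6 libraries and 0.17 (SE 0.09, adjusted p = 0.308) with 5. MTF2 had -0.26 (SE 0.16, adjusted p = 0.452) and -0.22 (SE 0.14, adjusted p = 0.402) in the same order, and PHF1, also Polycomb-like, -0.08 (SE 0.13, adjusted p = 0.767) and 0.00 (SE 0.08, adjusted p = 0.996).

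Of 29 PRC1 partners in the files 27 were tested with 6 libraries and 26 with 5, and none passed; 22 and 19 of them had a log2 fold change below 0, with medians of -0.26 and -0.11, where 66.5% and 57.3% of all tested genes were below 0. PCGF1, the PCGF protein of the BCOR complex, had the highest log2 fold change of the list. It was at 15.1, 15.1 and 10.1 FPKM in control cells against 22.2, 27.5 and 22.0 FPKM after LIN28B targeting. The groups did not overlap, and its log2 fold change was 0.82 (SE 0.19, adjusted p = 0.253) with 6 libraries and 0.88 (SE 0.19, adjusted p = 0.0582) with 5. As a share of the summed level of 6 PCGF genes, PCGF1 made up 5.05% ± 1.14 in control and 10.2% ± 1.52 in LIN28B KO, and BMI1 73.5% ± 3.28 and 69.1% ± 3.46 (SD, n = 3). These shares leave out the readthrough model COMMD3-BMI1, which shares exons with BMI1, so they are uncertain. PCGF2, the closest paralog of BMI1, was at 24.6, 23.4 and 20.8 FPKM in control cells against 17.3, 17.2 and 13.6 FPKM after LIN28B targeting (log2 fold change -0.51, SE 0.15, adjusted p = 0.295 with 6 libraries). It was not in the 5-library test, which matched genes by identifier.

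Estimates for other PCGF and CBX genes, which give PRC1 its variants, depended on LIN28B KO library 3. With 6 libraries the log2 fold changes were -0.37 for PCGF3, 0.11 for PCGF5 and 0.44 for PCGF6 (SE 0.16 to 0.28, adjusted p = 0.460 to 0.753), and with 5 they were -0.15, 0.23 and 0.13 (SE 0.11 to 0.15, adjusted p = 0.289 to 0.654). The CBX readers of the H3 mark, CBX2, CBX7 and CBX8, had -0.39, -0.39 and -0.49 with 6 libraries (SE 0.19 to 0.26, adjusted p = 0.397 to 0.415) and -0.20, -0.18 and -0.19 with 5 (SE 0.11 each, adjusted p = 0.332 to 0.374). DCAF7 and WDR5, WD-repeat scaffolds found in some PRC1 variants and in other complexes, had -0.56 (SE 0.15, adjusted p = 0.283) and -0.53 (SE 0.16, adjusted p = 0.298) with 6 libraries, and -0.44 (SE 0.09, adjusted p = 0.0541) and -0.39 (SE 0.09, adjusted p = 0.0582) with 5. PHC2, a polyhomeotic protein that clusters PRC1, had -0.62 (SE 0.23, adjusted p = 0.339) with 6 libraries and -0.41 (SE 0.16, adjusted p = 0.184) with 5.

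Genes that oppose Polycomb marks showed no called change. None of 13 tested members of the H2A deubiquitinase list passed in either comparison. BAP1, the deubiquitinase that removes the PRC1 mark, had -0.22 (SE 0.17, adjusted p = 0.522) with 6 libraries and -0.06 (SE 0.07, adjusted p = 0.654) with 5. OGT, a glycosyltransferase bound to the BAP1 complex, had 0.19 (SE 0.15, adjusted p = 0.537) and 0.29 (SE 0.08, adjusted p = 0.106). MYSM1 and USP16, other H2A deubiquitinases, had 0.27 (SE 0.10) and -0.21 (SE 0.10) with 5 libraries, and MBD6, a partner of BAP1, 0.26 (SE 0.09). With 6 libraries USP16 had -0.26 (SE 0.13), MYSM1 0.01 (SE 0.23) and MBD6 -0.06 (SE 0.27), so that the sign of MBD6 changed; in LIN28B KO library 3 MYSM1 and MBD6 were at 10.2 and 19.8 FPKM, below their controls. None of 13 H3 lysine 27 demethylases and opposing genes passed either. The demethylases KDM6A and KDM6B had -0.05 (SE 0.18) and 0.10 (SE 0.22) with 6 libraries, and -0.04 (SE 0.18) and 0.30 (SE 0.16) with 5. WHSC1, also called NSD2, a lysine 36 methyltransferase activated by translocation in some myelomas, was at 60.3, 59.8 and 58.7 FPKM in control cells against 47.2, 52.9 and 42.9 FPKM after LIN28B targeting (log2 fold change -0.32, SE 0.13, adjusted p = 0.354 with 6 libraries and -0.25, SE 0.07, adjusted p = 0.103 with 5). Its groups did not overlap. SMARCB1, a subunit of the SWI/SNF remodeller, had -0.32 (SE 0.18) with 6 libraries and -0.14 (SE 0.07) with 5, and SETD2, another lysine 36 methyltransferase, -0.18 (SE 0.13) and -0.12 (SE 0.09).

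**Figure D4:**
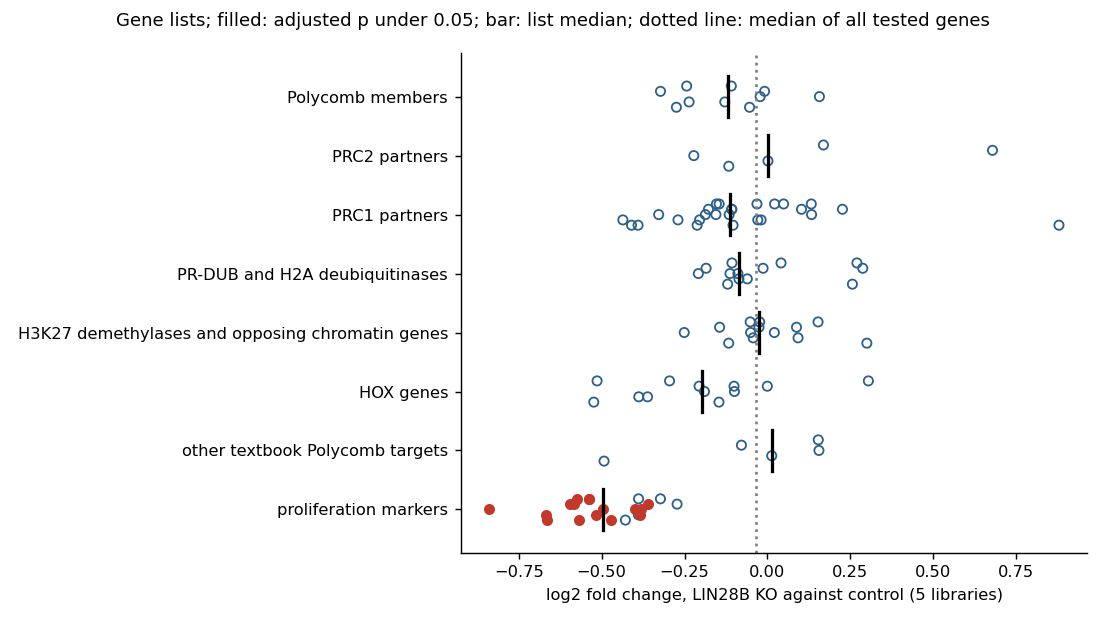
Log2 fold change of every tested gene of 8 lists in the 5-library comparison; filled points passed an adjusted p of 0.05, black bars are list medians and the dotted line is the median of all genes. All filled points, 16 of 21, belong to the proliferation list, and the Polycomb members centre on -0.12.

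HOX genes, the classical targets of Polycomb silencing, were described next to the subunits. Of 39 HOX genes 12 passed the filter, 3 of HOXA, 3 of HOXB, 0 of 9 HOXC and 6 of HOXD. The 4 with a control mean of at least 5 FPKM all belonged to HOXD, with HOXD10 at 37.8, 35.01 and 39.7 FPKM in control cells against 36, 33.9 and 26.7 FPKM after LIN28B targeting; HOXD10 is named for its level after values were seen. None of the 12 passed in either comparison, and 11 of 12 had a log2 fold change below 0 in both, where 66.5% and 57.3% of all tested genes were. The median of the 12 was -0.33 with 6 libraries and -0.20 with 5. The gene above 0 was HOXB7 (0.68, SE 0.34 with 6 libraries and 0.30 with 5), named as that exception after values were seen, at 2.68, 3.92 and 3.78 FPKM in control cells against 5.12, 3.66 and 10.05 FPKM after LIN28B targeting. HOXD11 was at 18.8, 18.4 and 18.6 FPKM in control cells against 13.6, 14.6 and 8.38 FPKM after LIN28B targeting (log2 fold change -0.63, SE 0.21, adjusted p = 0.316 with 6 libraries and -0.39, SE 0.08, adjusted p = 0.0533 with 5). HOXD4 was at 6.88, 6.44 and 6.46 FPKM and at 5.11, 3.90 and 4.06 FPKM (-0.56, SE 0.16, adjusted p = 0.284 with 6 libraries and -0.51, SE 0.14, adjusted p = 0.0933 with 5), also without overlap. HOXD3 had -0.68 (SE 0.26, adjusted p = 0.351) with 6 libraries and -0.52 (SE 0.24, adjusted p = 0.256) with 5.

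Of 30 other textbook targets of Polycomb silencing 7 were tested with 6 libraries and 5 with 5, and none passed. RUNX3, a transcription factor silenced in several cancers, was at 5.22, 4.10 and 4.86 FPKM in control cells against 3.31, 3.09 and 2.68 FPKM after LIN28B targeting, without overlap (log2 fold change -0.57, SE 0.17, adjusted p = 0.298 with 6 libraries and -0.49, SE 0.14, adjusted p = 0.107 with 5). GATA3, a developmental transcription factor, changed sign between the comparisons, with -0.03 (SE 0.22, adjusted p = 0.950) for 6 libraries and 0.16 (SE 0.16, adjusted p = 0.622) for 5. DAB2IP, a Ras regulator, had -0.27 (SE 0.19, adjusted p = 0.497) and -0.08 (SE 0.09, adjusted p = 0.667). CDKN2A, the cell cycle inhibitor locus that Polycomb silences in growing cells, was listed at 0 in 5 libraries and at 0.0372 FPKM in control library 1. CDKN1C, another inhibitor of this kind, did not exceed 0.300 FPKM in any library. Genes with a failed estimate were left out, and whether an exact 0 here means that no transcript was present was not tested.

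**Figure D5:**
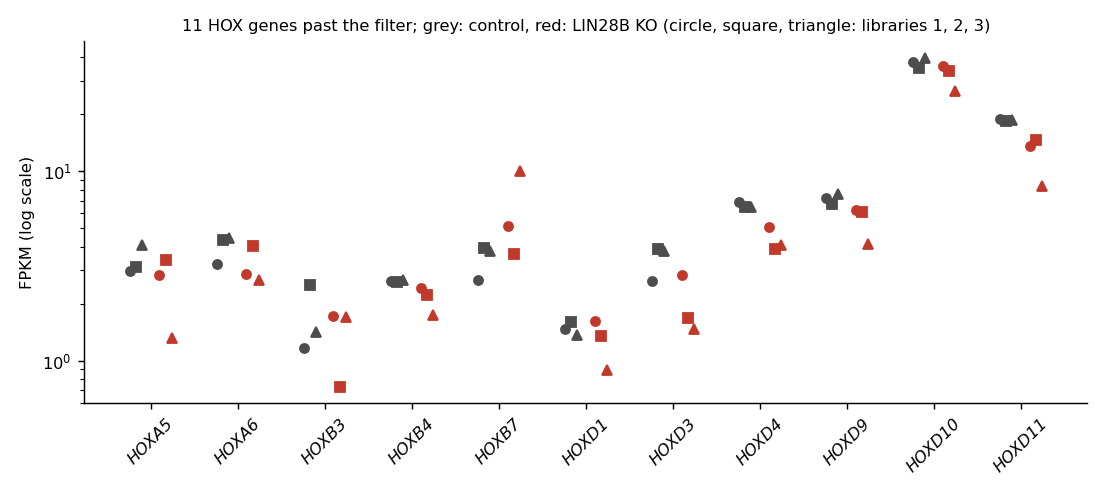
FPKM on a log scale of 11 of the 12 HOX genes past the filter in 3 control (grey) and 3 LIN28B KO (red) libraries. HOXD10 and HOXD11 are the most abundant. HOXB4, HOXD4, HOXD9 and HOXD11 lie below all controls in every LIN28B KO library, as do 20.1% of all tested genes. HOXB7 reaches 10.05 FPKM in LIN28B KO library 3 against 2.68 to 3.92 FPKM in control.

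EZH2, SUZ12, RBBP7 and PHF19 were grouped above because they lay below all controls in every LIN28B KO library. Proliferation markers were also lower in the LIN28B KO libraries, so that sharing these libraries is fixed by that choice. Of 21 such markers 16 fell and 0 rose in the 5-library comparison in limma, where 341 of 11308 tested genes fell. Their median log2 fold change was -0.50 (-0.62 with 6 libraries). After cyclic loess scaling 10 of 21 fell with 5 libraries and 4 with 6, against 132 and 54 of all genes tested. With 6 libraries and no such scaling, 0 passed and all 21 were below 0, where 66.5% of all genes were. All 21 had an unadjusted p under 0.05 there, against 8.73% of all genes that were lower at that threshold. The 5-library calls rest on those libraries together. With any further library left out, 0 genes of the whole table passed in limma, and 1964 to 2349 had an unadjusted p under 0.05. The 16 that fell with 5 libraries included the replication helicase genes MCM2 to MCM7, and RRM2 and PCNA of DNA synthesis. The others were the transcription factor genes E2F2, E2F8, FOXM1 and MYBL2, and the mitosis and growth markers AURKB, CCNA2, MKI67 and TOP2A. The log2 fold change was lowest for E2F8, at -0.84 (SE 0.11, adjusted p = 0.0266; -0.92 with 6 libraries, adjusted p = 0.165), and highest among those 16 for MCM4, at -0.36 (SE 0.05, adjusted p = 0.0289; -0.46 with 6 libraries, adjusted p = 0.298). MKI67, the usual marker of cycling cells, measured 19.3, 19.2 and 22.7 FPKM in control cells against 14.3, 13.4 and 10.9 FPKM after LIN28B targeting, without overlap. The summed level of the 21 genes was 1640 to 1707 FPKM in the controls, against 1202, 1193 and 867 FPKM after LIN28B targeting. The lower values of the 4 Polycomb genes and of the markers were not compared by a test, and the part of cell division in the Polycomb values was not tested. In bulk libraries fewer dividing cells and less RNA per cell cannot be told apart.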

How the data were processed

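RNA sequencing libraries of MOLP-8 cells, 3 control and 3 LIN28B KO, were grouped by the condition label, with replicate numbers from the titles. FPKM values were deposited by the authors, 1 a gene with its bounds, per the file headers. TopHat2, HTSeq and cutadapt are named with the build GRCh37 in the submitters' processing notes; for versions, roles, strand, annotation and the tool that wrote the tables, the sources used here give nothing. The 222 rows of 108 genes listed more than once were summed, and 25 genes with a failed estimate were left out, which kept 57861 genes.

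The test was limma 3.58.1 in R 4.3.3, with a variance trend, applied to log2(FPKM + 0.5) of genes that reached 1 FPKM in 3 or more libraries, with Benjamini-Hochberg adjustment over all genes tested and a threshold of 0.05. All 10 members passed this filter. Fold changes on this scale understate those of low genes. The 5-library fit used genes listed as protein-coding under the same identifier in GENCODE 29. Intervals are 95% intervals from limma. Ratios were tested by exact permutation over libraries (scipy 1.17.1). Fragment numbers are estimates from the width of the bounds, treated as counting error alone, and serve as a rough guide to depth only. The bounds may hold other uncertainty, so these numbers can be too low. PCR copies of 1 molecule cannot be told from separate molecules. The members, lists and the 5-library comparison were chosen with earlier results of these data known. Named genes were all members, LIN28B, all called list genes or up to 4 per list by p in the 5-library fit, and 18 fixed partners and targets; HOXB4, HOXB7, HOXD9 and HOXD10 were added after their values were seen, and 2 genes that the rule names are not reported here. Of 30 PRC1 partners 29 matched a symbol. Scripts were tested on simulated data. Alternatives were other pseudocounts (0.1 and 1), no filter, quantile and cyclic loess scaling, a replicate block, and leaving out each library. Sequences came from RefSeq tables of GRCh38.p14 and GENCODE 29, a build other than that of the files, and were used for letters only.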

Additional observations from a re-analysis of the deposited data

How the results depend on the processing

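No member of the 10 passed an adjusted p of 0.05 in limma under any alternative, with 6 or with 5 libraries. EZH2, SUZ12, RBBP7, PHF19, BMI1 and JARID2 kept a log2 fold change below 0 in all of them, though BMI1 ran from -0.39 to -0.02 with 6 libraries and from -0.18 to -0.02 with 5. For PHF19 it ran from -0.51 to -0.20 with 6 libraries and from -0.26 to -0.17 with 5 (smallest adjusted p = 0.0711), for RBBP7 from -0.61 to -0.23 and from -0.43 to -0.22 (smallest adjusted p = 0.0677), for EZH2 from -0.40 to -0.13 and from -0.32 to -0.15, and for SUZ12 from -0.35 to -0.12 and from -0.36 to -0.19. Signs changed for small values, and the cause was not tested: with 6 libraries RNF2 went to 0.10 with cyclic loess and 0.062 with quantile scaling; with 5 libraries EED went to 0.036 with cyclic loess, 0.019 with quantile scaling, 0.035 with the replicate block and -0.11 to 0.089 when 1 library was left out, RING1 to 0.018 with cyclic loess, 0.012 with quantile scaling and -0.091 to 0.047 when 1 was left out (0.047 without LIN28B KO replicate 2), and EZH1 to -0.022 to 0.33 when 1 was left out (-0.022 without LIN28B KO replicate 2). The EZH2 to EZH1 difference kept its sign throughout. The log2 difference of EZH2 to SUZ12, -0.02, ran from -0.14 to 0.040 when 1 library was left out, and that of RNF2 to RING1, 0.15, from -0.11 (without LIN28B KO replicate 3) to 0.29.

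Over all genes, with 6 libraries, 15 genes were called (10 higher, 5 lower), 6 without the filter, 28 with quantile scaling (15 and 13) and 111 with cyclic loess (57 and 54), and 4 to 64 when 1 library was left out. With 5 libraries, 463 were called (122 and 341), 24 without the filter, 64 over all genes that passed it, 247 with quantile scaling (114 and 133), 254 with cyclic loess (122 and 132), and 0 when any further library was left out; 1964 to 2349 genes then had an unadjusted p under 0.05. With the replicate number as a block, 13 genes were called with 6 libraries and 0 with 5 (2065 at an unadjusted p under 0.05). Correlations of deviations from the group means were -0.02, 0.04 and -0.03 for libraries of the same number, 1 to 3. They ran from -0.08 to 0.09 for libraries of different numbers. With 3 libraries a group, these values cannot decide whether the libraries were paired. The small group sizes limit what could be called: the smallest exact p for a ratio was 0.1.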
